A study of Mus musculus with 12 samples.

Results

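The small leucine-rich proteoglycans (SLRPs) are secreted proteins of the extracellular matrix, and their genes were measured in gastrocnemius muscle of recipient mice. The 10 genes Fmod, Lum, Dcn, Bgn, Ogn, Omd, Prelp, Kera, Aspn and Epyc were taken as every row of the array matrix whose single annotated symbol is one of these names. Each gene had 1 row, so they make up 10 of 28944 transcript clusters. They were selected on the RT minus RS difference of these arrays (groups defined below), so that difference, with its intervals and calls, is given as a description and not as a test of these genes.

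Germ-free ICR males (strain label Tsl;ICR[GF], age label 11 weeks) received feces by gavage from sedentary donors (RS, 6 mice) or from treadmill-trained donors (RT, 6 mice), and the study asked whether trained microbiota act on muscle of the recipients. Both groups were colonized in this way, both ate a high-fat diet, and both were fasted before sampling 1 week after the first transfer. Recipients were housed together and received identical fecal samples, so an effect of donor training and an effect of the shared sample or cage cannot be told apart. Muscle RNA of every mouse (250 ng) was labeled as cDNA and hybridized to an Affymetrix Mouse Gene 1.0 ST array, a 1-color array read at the gene level. The values are log2 signals, so a difference of 1 is a doubling. The number of arrays limits the precision, and the arrays are those of separate mice.

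SLRPs have a core of leucine-rich repeats that carries chains of chondroitin, dermatan or keratan sulfate, or none. They bind fibrillar collagens such as type I collagen and set the diameter and spacing of fibrils, and several of them hold transforming growth factor-β (TGF-β) and related factors in the matrix. In muscle they are made mainly by fibroblasts, fibro-adipogenic progenitors and tendon cells rather than by the muscle fibers. Class I holds decorin (Dcn), biglycan (Bgn) and asporin (Aspn). Class II holds fibromodulin (Fmod), lumican (Lum), prolargin (Prelp), keratocan (Kera) and osteomodulin (Omd), and class III holds osteoglycin (Ogn) and epiphycan (Epyc).

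Most of these genes lie side by side in the genome. In the RefSeq gene table of the mouse assembly GRCm38.p6, Prelp and Fmod are neighbors on chromosome 1, Dcn, Lum, Kera and Epyc follow each other on chromosome 10, and Aspn, Omd and Ogn follow each other on chromosome 13, with 0 other protein-coding genes between neighbors. Bgn stands alone on chromosome X. The 250 bases before the annotated start are shown for Fmod, Bgn and Ogn, to show 1 gene from each group of SLRPs described together below, Fmod with Prelp and Kera, Bgn with Aspn, and Ogn with Dcn and Lum. Sequences are from RefSeq, 5′ to 3′ on the gene's strand, which is the plus strand for these genes. Capitals mark matches on either strand to the TATA box (TATAAA), the CCAAT box (CCAAT) and the E-box (CANNTG).
Fmod, chr1:134037004-134037253: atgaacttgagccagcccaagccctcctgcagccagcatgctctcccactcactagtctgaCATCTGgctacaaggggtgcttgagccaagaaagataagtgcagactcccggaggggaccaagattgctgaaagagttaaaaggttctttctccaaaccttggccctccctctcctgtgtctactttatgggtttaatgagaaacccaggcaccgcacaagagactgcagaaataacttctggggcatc
Bgn, chrX:73483351-73483600: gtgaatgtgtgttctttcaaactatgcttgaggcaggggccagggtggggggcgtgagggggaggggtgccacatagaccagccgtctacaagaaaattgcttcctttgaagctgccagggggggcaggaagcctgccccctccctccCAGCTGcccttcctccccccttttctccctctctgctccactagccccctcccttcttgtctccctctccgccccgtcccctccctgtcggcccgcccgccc
Ogn, chr13:49607765-49608014: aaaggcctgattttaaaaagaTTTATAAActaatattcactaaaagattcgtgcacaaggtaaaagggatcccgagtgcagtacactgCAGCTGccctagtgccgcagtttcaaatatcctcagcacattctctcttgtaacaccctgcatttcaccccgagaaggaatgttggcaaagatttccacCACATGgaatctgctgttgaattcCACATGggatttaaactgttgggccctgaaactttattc

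The stretches before these starts differed in composition. GC content was 51.2% before Fmod, 64.4% before Bgn and 42.0% before Ogn, and the median over 32851 promoters in the table was 52.4%. The Fmod stretch held 1 E-box, whose first base lies at −189 from the start, and 0 matches to the TATA box, the CCAAT box or the GC box, GGGCGG. The Bgn stretch held 1 E-box and 3 GC boxes (not in capitals). The Ogn stretch held 3 E-boxes and 2 TATA boxes that overlap each other. Among all promoters of this length, 66.2% held an E-box, 12.4% a TATA box, 33.8% a CCAAT box, 32.7% a GC box and 6.75% the AP-1 letters TGANTCA. The AP-1 letters had 0 matches in each of the 8 SLRP genes that the table holds. Lum and Dcn have no entry there. These matches describe the letters only.

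Of the 10 SLRP genes, 9 had higher signals in RT than in RS and met the thresholds that the fit over all transcript clusters used in limma (unadjusted p under 0.05 and Benjamini-Hochberg adjusted p under 0.1), and 0 were called lower (0 also had a lower signal at an unadjusted p under 0.05). Across all transcript clusters, 11.9% were called higher by the same rule and 13% lower. The median log2 difference was 0.91 over the 10 genes and −0.01 over all transcript clusters. For 2 of the 10 genes, Fmod and Prelp, the lowest RT mouse was above the highest RS mouse, and 2.69% of all transcript clusters had that separation. The other 7 called genes overlapped between the groups. Because this contrast chose the genes, nothing is read from these counts or from the counts under other fits below. In whole muscle, a change in the number of cells that make a transcript and a change in transcript per cell cannot be told apart.

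**Figure D1:**
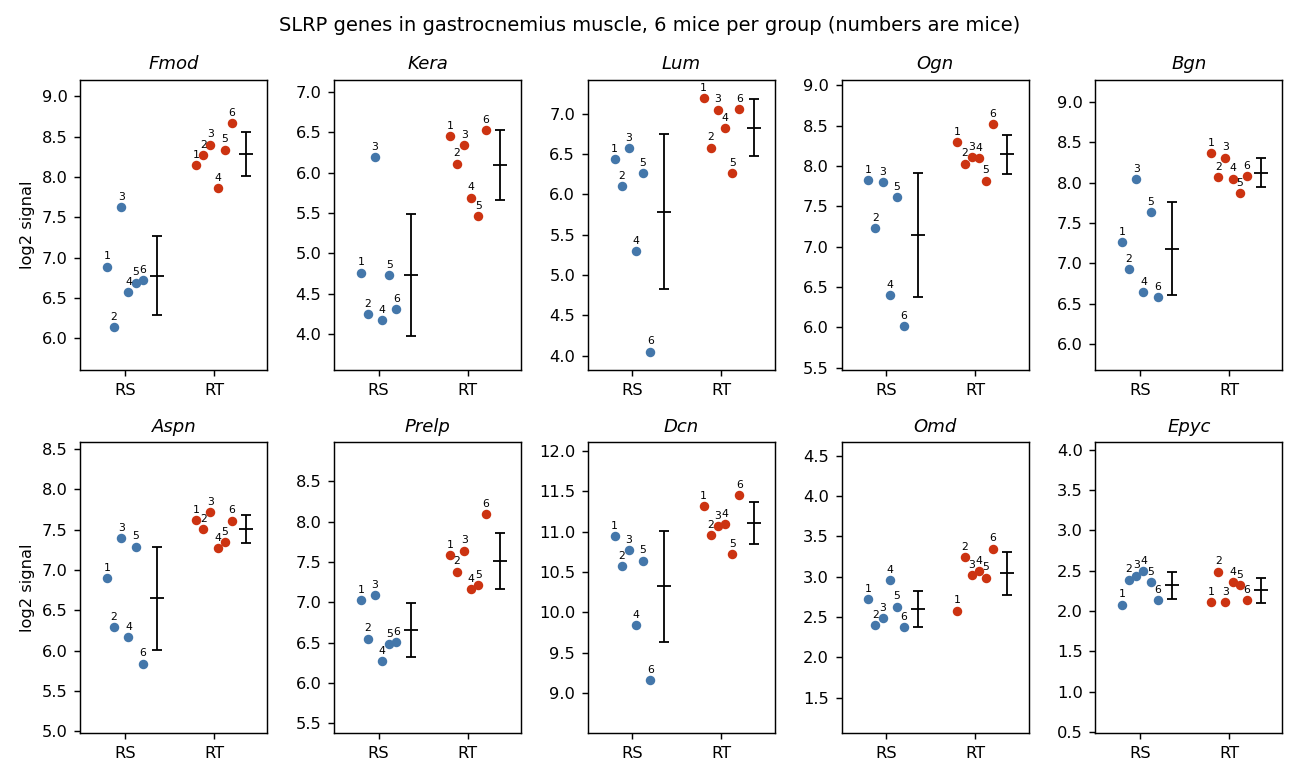
Log2 signal (vertical axis, own range in each panel, each spanning the same number of log2 units) of the 10 SLRP genes in RS (blue) and RT (red) mice. Points are mice with their numbers, and the bars beside them are the mean ± SD of 6 mice. The groups do not overlap for Fmod and Prelp, RS-4 and RS-6 lie lowest for Dcn, Lum and Ogn, and the Epyc groups lie over each other.

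The tissue and the arrays were checked first. The 10 muscle fiber markers had mean log2 signals between 9.13 and 12.97, and their mean per mouse ranged from 11.66 to 12.02 in RS and from 11.59 to 11.98 in RT. Array medians lay between 4.40 and 4.63. RS-4 and RS-6 stood apart from the other arrays. The SD over all transcript clusters was 1.97 and 1.99 in them and between 2.06 and 2.15 elsewhere. On the first principal component they lay at 43.0 and 43.4. The other RS mice lay between −4.7 and 21.2 there and the RT mice between −30.8 and −9.6. This component thus also separated the groups. Leaving out RS-4 and RS-6 therefore takes away the RS mice farthest from RT along it. Values that rest on these 2 mice are given below with and without them.

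Class I SLRPs carry chondroitin or dermatan sulfate chains, except asporin, which lacks them. Bgn, whose product also acts as a danger signal on innate immune receptors, had log2 signals of 6.58 (lowest), 7.10 (median) and 8.04 (highest) in RS and of 7.87, 8.08 and 8.37 in RT. The means were 7.18 ± 0.58 and 8.13 ± 0.18 (SD, n = 6 each), a log2 difference of 0.95 with a standard error (SE) of 0.20, or 1.93-fold (95% interval 1.43 to 2.59). Only RS-3, at 8.04, reached into the RT range, and 5 RT mice lay above every RS mouse.

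Dcn, a small proteoglycan that binds collagen fibrils and TGF-β, had log2 signals of 9.16, 10.61 and 10.94 (lowest, median and highest) in RS and of 10.72, 11.08 and 11.45 in RT. The means were 10.32 ± 0.68 and 11.10 ± 0.26 (SD, n = 6 each), and the log2 difference was 0.78 (SE 0.24), or 1.72-fold (95% interval 1.21 to 2.44). RS-6 at 9.16 and RS-4 at 9.84 lay well below the other RS mice, which were between 10.57 and 10.94. Without RS-4 and RS-6 the Dcn difference was 0.37.

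Aspn, whose product competes with decorin for collagen, had log2 signals of 5.84, 6.60 and 7.39 in RS and of 7.27, 7.56 and 7.72 in RT. The means were 6.65 ± 0.64 and 7.51 ± 0.17 (SD, n = 6 each), with a log2 difference of 0.87 (SE 0.22) and a 1.82-fold ratio (95% interval 1.32 to 2.51). The highest RS mice, RS-3 at 7.39 and RS-5 at 7.29, overlapped the lowest RT mice, and without RS-4 and RS-6 the Aspn difference was 0.54.

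In class II, Fmod had the largest difference of the 10 genes. Fibromodulin carries keratan sulfate, is abundant in tendon and binds type I collagen, where it guides crosslinking. Its log2 signals were 6.14, 6.71 and 7.63 in RS and 7.86, 8.31 and 8.67 in RT. The means were 6.77 ± 0.49 and 8.28 ± 0.27 (SD, n = 6 each), a log2 difference of 1.51 (SE 0.19) or 2.84-fold (95% interval 2.16 to 3.74), which was rank 11 among 28944 transcript clusters. The groups did not overlap, and the nearest mice were RS-3 at 7.63 and RT-4 at 7.86. Without RS-4 and RS-6 the difference was 1.44.

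Prelp encodes prolargin, which ties matrix collagen to basement membranes. Its log2 signals were 6.27, 6.53 and 7.09 in RS and 7.16, 7.48 and 8.09 in RT. The means were 6.66 ± 0.33 and 7.51 ± 0.34 (SD, n = 6 each), with a log2 difference of 0.86 (SE 0.16) or 1.81-fold (95% interval 1.42 to 2.30). The groups did not overlap, though RS-3 at 7.09 and RT-4 at 7.16 were close, and RT-6 stood above the other RT mice.

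Kera, best known for the ordered collagen of the cornea and present in tendon, had log2 signals of 4.17, 4.52 and 6.19 in RS and of 5.46, 6.23 and 6.53 in RT. The means were 4.74 ± 0.76 and 6.10 ± 0.43 (SD, n = 6 each), with a log2 difference of 1.36 (SE 0.28) or 2.57-fold (95% interval 1.70 to 3.89). Of the RS mice, 5 lay below every RT mouse, and RS-3 alone, at 6.19, lay inside the RT range. The next highest RS mouse was at 4.76.

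Lum, a keratan sulfate proteoglycan of fibrous tissue, had log2 signals of 4.05, 6.18 and 6.57 in RS and of 6.26, 6.94 and 7.19 in RT. The means were 5.79 ± 0.96 and 6.83 ± 0.35 (SD, n = 6 each), and the log2 difference was 1.04 (SE 0.33), or 2.06-fold (95% interval 1.27 to 3.33). RS-6 at 4.05 and RS-4 at 5.30 were the low mice, and without them the Lum difference was 0.48. Omd, which is known from bone and tooth, was dim. Its log2 signals were 2.38, 2.56 and 2.96 in RS and 2.58, 3.05 and 3.35 in RT, a log2 difference of 0.45 (SE 0.13). Here RS-4 was the highest RS mouse and RT-1 the lowest RT mouse, whereas RS-4 was the second lowest RS mouse for Lum.

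Class III differed within itself. Ogn, whose protein is also called mimecan and regulates fibril assembly, had log2 signals of 6.02, 7.43 and 7.83 in RS and of 7.82, 8.11 and 8.52 in RT. The means were 7.15 ± 0.77 and 8.15 ± 0.24 (SD, n = 6 each), a log2 difference of 1.00 (SE 0.26) or 2.00-fold (95% interval 1.36 to 2.93). The ranges touched only through RS-1 at 7.83 and RT-5 at 7.82, and without RS-4 and RS-6 the Ogn difference was 0.53. Epyc, a gene of growth plate cartilage, had log2 signals of 2.08, 2.38 and 2.50 in RS and of 2.11, 2.23 and 2.49 in RT. Its means were 2.32 ± 0.17 and 2.26 ± 0.16 (SD, n = 6 each), and the log2 difference was −0.06 (SE 0.10, 95% interval −0.27 to 0.14). With each array centered on its median the Epyc difference was 0.01. Omd and Epyc fell in the dimmest 33.3% of transcript clusters, and the matrix carries no detection call, so whether Epyc was above background is not known.

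**Figure D2:**
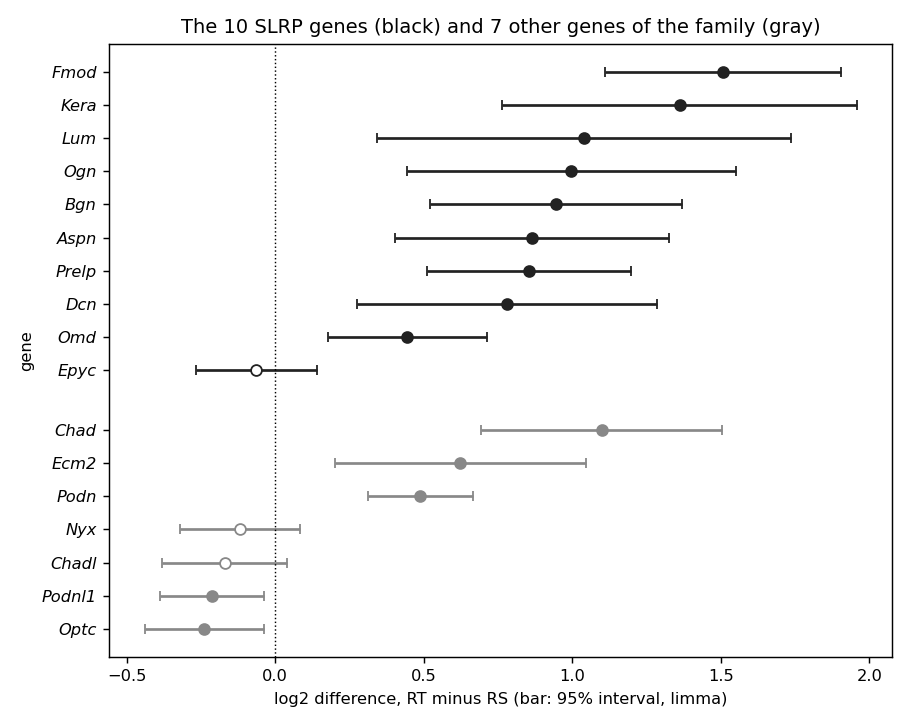
Log2 difference RT minus RS (horizontal axis) with its 95% interval from limma for the 10 SLRP genes (black) and 7 other genes of the family (gray). Filled points passed both thresholds. Fmod lies farthest to the right at 1.51, Epyc at −0.06 is the SLRP gene that did not pass, and the other family genes lie on both sides of 0.

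The size of the differences depended on RS-4 and RS-6 more for some genes than for others. Without both mice the median difference was 0.54, and 9 of the 10 genes met the thresholds (5.7% of all transcript clusters were then called higher). Fmod, Prelp and Kera, then at 1.44, 0.72 and 1.11, moved least in proportion among the genes with a difference over 0.8, Bgn went from 0.95 to 0.66, and Dcn, Lum and Ogn lost about as much as they kept. The SD of an array went in part with its group, from 1.97 to 2.13 in RS and from 2.08 to 2.15 in RT. As a covariate it therefore cannot be fully told apart from the group. With the SD of each array as a covariate, 2 genes met the thresholds, Fmod at 1.30 and Prelp at 0.53, beside 2.53% of all transcript clusters called higher. In that fit the differences of Kera, Bgn, Omd, Aspn, Ogn, Lum and Dcn ranged from 0.88 down to 0.20. By the methods' test, 7 genes met them and Dcn and Lum did not, beside 10.1% of all transcript clusters.

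The spread among RS mice was wider than among RT mice for 8 of the 10 genes. The ratio of the SDs had a median of 2.22, against 1.33 over all transcript clusters, 69.8% of which had the larger SD in RS. Without RS-4 and RS-6 the RS spread was the larger for 6 of 10 genes and for 54.1% of all transcript clusters. The RS SD of Dcn went from 0.68 to 0.16 and that of Lum from 0.96 to 0.21, whereas that of Fmod went from 0.49 to 0.62 and that of Kera from 0.76 to 0.84. The genes thus differed in which mice set their spread. RS-6 was the lowest RS mouse for 6 of the 10 genes (Bgn, Dcn, Aspn, Lum, Omd and Ogn), and RS-3 was the highest for 6 (Bgn, Aspn, Fmod, Lum, Prelp and Kera). In RT, RT-6 was highest for 6 genes and RT-5 lowest for 5.

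**Figure D3:**
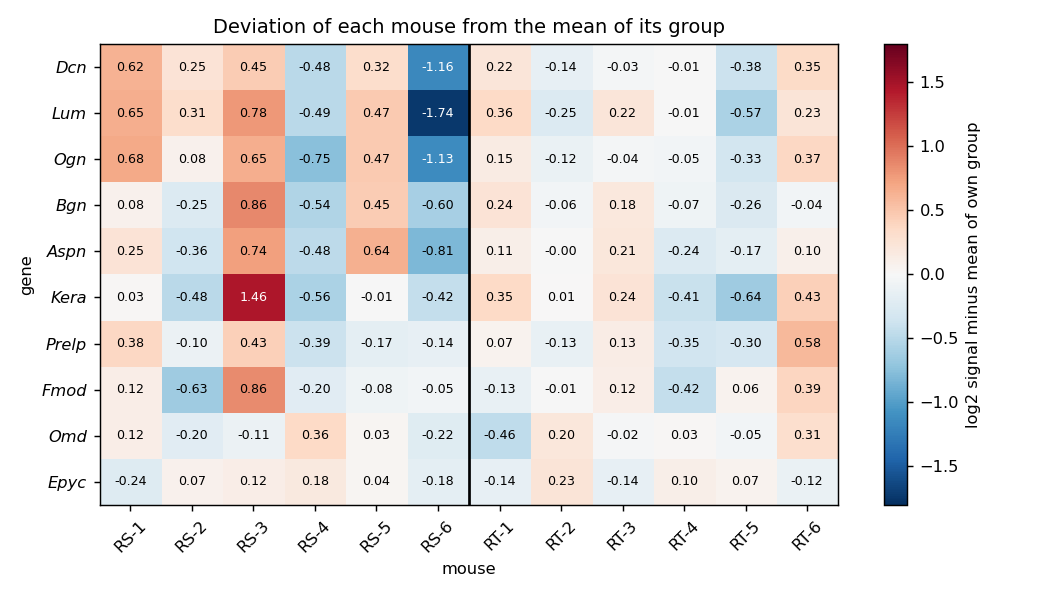
Log2 signal of each SLRP gene (rows) in each mouse (columns) minus the mean of the mouse's own group, with red above and blue below the mean. Dcn, Lum and Ogn are lowest in RS-6 (−1.16, −1.74 and −1.13), Fmod, Kera, Bgn and Aspn are highest in RS-3, and the Epyc row is pale throughout.

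Whether SLRP genes vary together was tested on the deviation of each mouse from the mean of its own group. The RT minus RS difference that chose the genes does not use these deviations, but the test was chosen with earlier results of these data known. All 45 pairs were tested over 12 mice by permuting the deviations within groups (100000 permutations, two-sided, Benjamini-Hochberg adjusted over the 45 pairs). The permutations treat the mice of a group as exchangeable, although RS-4 and RS-6 stood apart over the whole array, and no p-value was computed without them. Each test asks only whether 2 genes vary independently. A relation particular to SLRP genes and variation that many genes share across the arrays cannot be told apart by it, with or without those mice. Of the pairs, 11 had an adjusted p under 0.05 for Pearson's r, and all 11 correlations were positive. All 11 were among the 28 pairs without Omd and Epyc, and 0 of 17 pairs with either of them passed. As a description, at the smallest r that passed, 0.713, or above lay 15 of the 45 SLRP pairs and 2.28% of all pairs of transcript clusters, many of which are dim. Without RS-4 and RS-6 the same value was reached by 13 of the 45 pairs and 2.22% of all pairs.

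The 3 pairs among Dcn, Lum and Ogn had r of 0.94 or more. Dcn and Ogn had r = 0.97 (permutation p = 1e-05, the smallest these permutations can give, adjusted p = 0.00045) and rho = 0.98 (permutation p = 3e-05, adjusted p = 0.00135). For Dcn and Lum r was 0.98 (permutation p = 0.0001, adjusted p = 0.0015) and rho 0.93 (permutation p = 0.00078, adjusted p = 0.00829). Leaving out RS-4 and RS-6, the mice farthest from the median of Dcn, gave r = 0.91 for Dcn with Ogn and 0.86 for Dcn with Lum. Lum and Ogn had r = 0.94 (permutation p = 2e-05, adjusted p = 0.00045) and rho = 0.97 (permutation p = 0.0001, adjusted p = 0.0015), with r = 0.93 without RS-6 and RT-5. Dcn and Lum are neighbors on chromosome 10, and Ogn lies on chromosome 13.

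Bgn and Aspn, class I genes on different chromosomes, also varied together. They had r = 0.95 (permutation p = 0.00025, adjusted p = 0.00225) and rho = 0.95 (permutation p = 0.0001, adjusted p = 0.0015), and r = 0.93 without RS-3 and RS-6. Aspn also varied with Lum (r = 0.82, rho = 0.82, adjusted permutation p = 0.00913 and 0.0109) and with Ogn (r = 0.87, rho = 0.85, adjusted permutation p = 0.0361 and 0.0235). Bgn varied with Kera (r = 0.85, rho = 0.80, adjusted permutation p = 0.0048 and 0.00829), as did Aspn (r = 0.77, rho = 0.73, adjusted permutation p = 0.0135 and 0.0161). Without RS-3 and RS-6, the mice farthest from the median of Aspn and of Bgn, these 4 correlations were 0.67, 0.75, 0.71 and 0.73, and without RS-4 and RS-6 they were 0.53, 0.65, 0.86 and 0.77. By rank, Bgn also varied with Lum (rho = 0.85, adjusted permutation p = 0.00829) and Ogn (rho = 0.83, adjusted permutation p = 0.0235), and Kera with Ogn (rho = 0.69, adjusted permutation p = 0.0499), although their Pearson correlations of 0.79, 0.82 and 0.64 did not pass (adjusted permutation p = 0.0606, 0.0624 and 0.116). Without RS-4 and RS-6 these Pearson correlations were 0.63, 0.57 and 0.71. The groups of genes named here therefore overlap.

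Fmod, Prelp and Kera, all class II, were linked in pairs as well. Fmod and Prelp, neighbors on chromosome 1, had r = 0.71 (permutation p = 0.00753, adjusted p = 0.0361) and rho = 0.69 (permutation p = 0.0197, adjusted p = 0.0566), and r = 0.80 without RS-2 and RS-3. Prelp and Kera had r = 0.78 (permutation p = 0.00022, adjusted p = 0.00225) and rho = 0.84 (permutation p = 0.00129, adjusted p = 0.00829), and r = 0.77 without RS-3 and RT-6. For Fmod and Kera, r was 0.81 (permutation p = 0.0102, adjusted p = 0.0417) and rho 0.63 (permutation p = 0.0364, adjusted p = 0.078), and r fell to 0.52 without RS-2 and RS-3, so this relation rests on those mice. Without RS-4 and RS-6, r was 0.72 for Fmod with Prelp, 0.73 for Prelp with Kera and 0.83 for Fmod with Kera. With those mice left out, Prelp had larger correlations with Ogn (0.81) and Dcn (0.79), and Fmod with Aspn had 0.77. Prelp is thus not set apart from Dcn and Ogn when those mice are left out. Fmod and Dcn, at r = 0.25 (permutation p = 0.527, adjusted p = 0.769) and rho = 0.35 (permutation p = 0.306, adjusted p = 0.489), did not pass.

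Fmod and Dcn also had different genes nearest to them among all transcript clusters with 1 symbol, by the correlation of the same deviations over 12 mice, given as a description. Nearest to Fmod were Tnmd (r = 0.94), which encodes the tendon protein tenomodulin, Chad (0.91), a cartilage and tendon leucine-rich protein, Usp6nl (0.91), Thbs4 (0.90), a thrombospondin of tendon and muscle matrix, and Lats1 (0.89), a kinase of the Hippo pathway. Nearest to Dcn were Dpt (r = 0.99), which encodes the decorin-binding matrix protein dermatopontin, Selenop (0.98), a selenium carrier, Ctsb (0.98), a lysosomal protease, Ctnnb1 (0.98), which encodes β-catenin, and Plxdc2 (0.98). Without RS-4 and RS-6 the 5 correlations with Fmod lay between 0.91 and 0.94 and the 5 with Dcn between 0.88 and 0.94.

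Marker lists of cell types were set against Fmod and Dcn in the same way. The tenocyte score, the mean log2 signal of 9 markers, had r = 0.83 with Fmod and −0.13 with Dcn, and without RS-4 and RS-6 0.88 and 0.10. The fibroblast score, over 10 markers of fibroblasts and fibro-adipogenic progenitors, had r = 0.31 with Fmod and 0.96 with Dcn, and 0.37 and 0.87 without those mice. The scores hold genes named above as nearest to Fmod (Tnmd and Thbs4) or Dcn (Dpt), so they partly repeat that result. Leaving these genes out, an alternative chosen after seeing the data, gave r = 0.51 for the tenocyte score with Fmod and −0.57 with Dcn (0.75 and −0.14 without RS-4 and RS-6), and 0.33 for the fibroblast score with Fmod and 0.94 with Dcn (0.40 and 0.84). The tenocyte correlation with Fmod thus rested in part on Tnmd and Thbs4. These correlations share the same arrays and are descriptions. RS-3, the RS mouse with the highest Fmod and Kera, also had the highest tenocyte score in RS, 5.75, and RS-6, the mouse lowest in Dcn, had the lowest fibroblast score, 5.94.

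**Figure D4:**
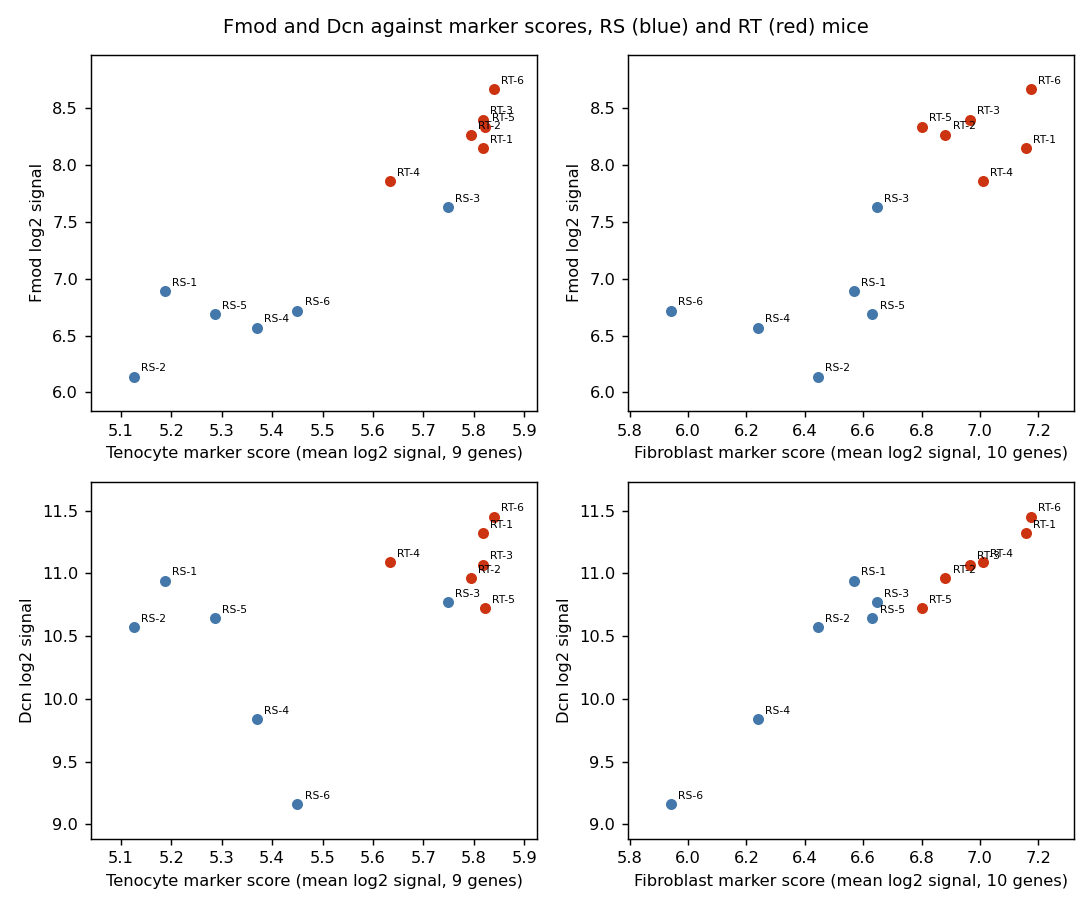
Log2 signal of Fmod (upper row) and Dcn (lower row) against the tenocyte score (left, 9 genes) and the fibroblast score (right, 10 genes), with RS mice in blue and RT mice in red. Dcn follows the fibroblast score down to RS-6 at 5.94, and RS-3 has both the highest Fmod signal and the highest tenocyte score of the RS mice.

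Marker levels moved with the groups. Of the fibroblast list, 9 of 10 measured markers rose in RT and 0 fell, with a median log2 difference of 0.54, and the score ranged from 5.94 to 6.65 in RS and from 6.80 to 7.18 in RT. Dpt was higher by 0.93 (SE 0.24, limma adjusted p = 0.0208) and Pdgfra, which encodes the receptor that defines fibro-adipogenic progenitors, by 0.88 (SE 0.14, limma adjusted p = 0.00177). Leaving out RS-4 and RS-6, 8 were called higher, and 1 was with the array SD as a covariate. Of the tenocyte list, 5 of 9 rose and 0 fell (median 0.24), with scores from 5.13 to 5.75 in RS and from 5.63 to 5.84 in RT. Tnmd was higher by 1.24 (SE 0.22, limma adjusted p = 0.00263) and Thbs4 by 1.22 (SE 0.19, limma adjusted p = 0.00121), while the tendon transcription factor Mkx was at 4.38 ± 0.30 in RS and 4.43 ± 0.25 in RT (SD, n = 6 each). The tenocyte count was 3 without RS-4 and RS-6, with the array SD as a covariate, or without RT-1. The part of these cells in the SLRP differences was not tested.

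Markers of other cells that a muscle sample can hold moved as well. Macrophage markers rose in 7 of 8 (median 0.81), with scores from 4.77 to 5.14 in RS and from 5.36 to 5.71 in RT, led by Mrc1 at 1.00 (SE 0.18, limma adjusted p = 0.00321) and Cd163 at 0.95 (SE 0.12, limma adjusted p = 0.000351). Adipocyte markers rose in 4 of 7 (median 0.48, scores from 4.77 to 5.14 in RS and from 5.15 to 6.19 in RT), led by Adipoq, which encodes adiponectin, at 1.31 (SE 0.30, limma adjusted p = 0.0103) and Cidec at 1.00 (SE 0.24, limma adjusted p = 0.0143). The adipocyte scores of RT-1 and RT-6, 5.9 and 6.19, lay above those of the other RT mice, at 5.15 to 5.47. The SD of Adipoq was 0.90 in RT and 0.19 in RS. Endothelial markers rose in 5 of 8 (median 0.49, scores from 6.13 to 6.51 in RS and from 6.61 to 6.93 in RT), led by Vwf at 0.71 (SE 0.10, limma adjusted p = 0.00102) and Emcn at 0.63 (SE 0.15, limma adjusted p = 0.0112). Without RS-4 and RS-6, 7 macrophage, 3 adipocyte and 4 endothelial markers were called higher. With the array SD as a covariate these counts were 5, 1 and 2. Among 5 Schwann cell markers Pmp22 rose by 1.15 (SE 0.33, limma adjusted p = 0.0283) and Sox10 was lower at −0.38 (SE 0.11, limma adjusted p = 0.0283), with scores from 4.79 to 5.63 in RS and from 5.10 to 6.24 in RT, and neither was called without RS-4 and RS-6. Muscle fiber markers had a median of 0.06, and 0 of 10 were called in limma. Cartilage and bone markers fell in 4 of 9 and rose in 0 (median −0.15, scores from 3.66 to 3.88 in RS and from 3.46 to 3.64 in RT), among them Col9a1 at −0.55 (SE 0.09, limma adjusted p = 0.0017) and Acan, which encodes aggrecan, at −0.45 (SE 0.09, limma adjusted p = 0.00641). Without the dimmest transcript clusters, 4 of the cartilage and bone markers were left in the test and 1 was called lower. In that test 15.8% of the transcript clusters left were called lower. Quantile normalization again, or cyclic loess, gave 3 lower and 1 higher. Over all transcript clusters they called 9.53% and 9.73% lower and 9.62% and 9.57% higher. Leaving out RS-4 and RS-6 gave 4 lower, and the array SD as a covariate gave 3. Acan was dim, at percentile 24.9 of mean signal. The matrix carries no detection call, so whether Acan was above background is not known. The part of these marker shifts in the SLRP differences was not tested.

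The other genes of the SLRP family, measured in 7 of 8, did not move in 1 direction, and their median log2 difference was −0.12. Chad was higher by 1.10 (SE 0.19, limma adjusted p = 0.00253), with log2 signals of 4.32, 5.18 and 5.97 (lowest, median and highest) in RS and of 5.98, 6.23 and 6.55 in RT. Podn, which encodes podocan, was higher by 0.49 (SE 0.08, limma adjusted p = 0.00235), and its groups did not overlap, at 6.03 to 6.31 in RS and 6.46 to 6.80 in RT. Ecm2, the neighbor of Aspn on chromosome 13, was higher by 0.62 (SE 0.20, limma adjusted p = 0.0456). Optc, the neighbor of Prelp on chromosome 1 and known from the eye, was lower by a log2 difference of −0.24 (SE 0.09, limma adjusted p = 0.0941), and Podnl1 was lower by −0.21 (SE 0.08, limma adjusted p = 0.0866). Nyx and Chadl, at −0.12 and −0.17, did not pass. Of the 3 genes called higher, 2 were called without RS-4 and RS-6 and 2 with the array SD as a covariate. Neither fall was called in either of these fits.

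The counts of the lists that follow can be read against the 11.9% of all transcript clusters called higher and the 13% called lower. Without RS-4 and RS-6 these shares were 5.7% and 6.19%, and with the array SD as a covariate 2.53% and 3.07%. The collagens that SLRPs bind rose in 7 of 14 genes and fell in 1 (median 0.29). The fibril-associated collagens Col12a1 and Col14a1 were higher by 0.71 (SE 0.14, limma adjusted p = 0.00412) and 0.63 (SE 0.13, limma adjusted p = 0.00756), and Col2a1, the cartilage collagen, was lower at −0.38 (SE 0.11, limma adjusted p = 0.0292). When RS-4 and RS-6 were left out, 3 collagens were called higher and 0 lower, and with the array SD as a covariate 2 and 0. Among the enzymes that crosslink or hydroxylate collagen, 5 of 10 rose and 1 fell (median 0.12). Lox, which encodes the lysyl oxidase that fibromodulin binds, was higher by 0.99 (SE 0.08, limma adjusted p = 5.31e-05), at 4.08 to 4.34 in RS and 5.00 to 5.44 in RT, and Loxl1 by 0.51 (SE 0.13, limma adjusted p = 0.0181). P4ha2, a collagen prolyl hydroxylase subunit, was at −0.34 (SE 0.10, limma adjusted p = 0.0344). The count of 5 was 3 without any 1 of RS-1, RS-4, RT-1, RT-2, RT-3 and RT-6, 3 without both RS-4 and RS-6, and 2 with the covariate.

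Enzymes that build the sugar chains of SLRPs were taken in a pair of lists. For linkage and chondroitin or dermatan sulfate chains, 8 of 22 genes rose and 1 fell, and the median was 0.08. The epimerases that turn chondroitin into dermatan sulfate were among those that rose, Dsel at 0.54 (SE 0.14, limma adjusted p = 0.0212) and Dse at 0.41 (SE 0.12, limma adjusted p = 0.0275), and the chondroitin synthase gene Chsy3 fell at −0.39 (SE 0.11, limma adjusted p = 0.0331). The count of 8 was 5 without any 1 of RS-6, RT-1, RT-2, RT-3 and RT-6, 3 without both RS-4 and RS-6, and 0 with the array SD as a covariate. For keratan sulfate chains and tyrosine sulfation, 3 of 10 rose and 0 fell (median 0.02), with B3gnt2 at 0.58 (SE 0.14, limma adjusted p = 0.016) and Chst2 at 0.29 (SE 0.10, limma adjusted p = 0.0528). That count was 1 without RS-4 and RS-6 and 1 with the covariate.

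Growth factors that SLRPs hold, with their receptors, rose in 12 of 15 genes and fell in 0 (median 0.48). Bmp4, a bone morphogenetic protein that biglycan binds, was higher by 0.85 (SE 0.16, limma adjusted p = 0.00395), and Igf1, a growth factor of muscle, by 0.71 (SE 0.13, limma adjusted p = 0.00287). The groups did not overlap for either gene. Receptors of soluble SLRPs rose in 5 of 11 genes and fell in 1 (median 0.29). Lrp1, an endocytic receptor that takes up decorin, was higher by 0.67 (SE 0.11, limma adjusted p = 0.00188) and Egfr by 0.56 (SE 0.11, limma adjusted p = 0.00449), and Tlr2, an innate receptor of biglycan, was lower at −0.24 (SE 0.10, limma adjusted p = 0.0952). Proteases that process SLRPs rose in 5 of 10 and fell in 0 (median 0.16), with the gelatinase gene Mmp2 at 0.87 (SE 0.14, limma adjusted p = 0.00153) and the aggrecanase gene Adamts5 at 0.77 (SE 0.12, limma adjusted p = 0.00181). With those mice left out (RS-4 and RS-6), 7 growth factor genes, 4 receptors and 3 proteases were called higher, and with the covariate 6, 4 and 3. The fall of Tlr2 was not called without RS-4 and RS-6 or with the covariate.

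**Figure D5:**
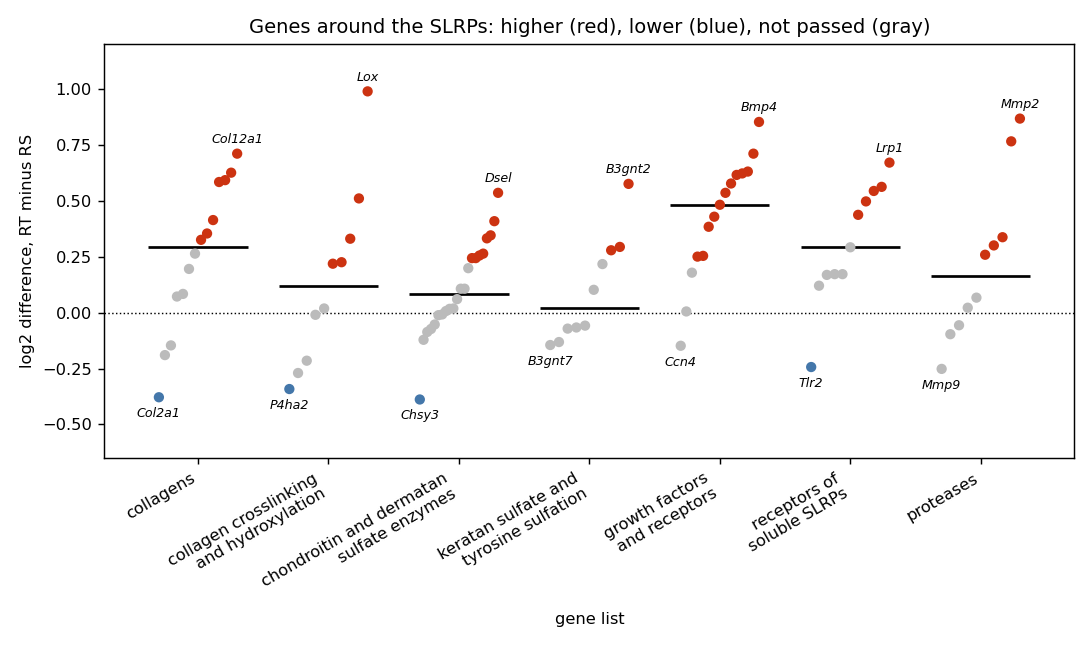
Log2 difference RT minus RS (vertical axis) of each measured gene in 7 lists of genes around the SLRPs (horizontal axis), sorted within each list. Red genes were called higher, blue lower and gray did not pass, and the bars are list medians, from 0.02 for keratan sulfate enzymes to 0.48 for growth factors and receptors.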

How the data were processed

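Gastrocnemius RNA of 12 mice, 6 RS and 6 RT, was measured on 1 Affymetrix Mouse Gene 1.0 ST array per mouse. The deposited matrix holds RMA-normalized log2 signals made by the authors. The methods also name the SST-RMA variant in another paragraph, and which of them gave the deposited matrix is not settled here. The genome build behind the array annotation is not given in the sources used here. Sample labels gave each array's group and number, and 0 matrix columns belonged to other samples.

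Of 28944 transcript clusters, 21789 carried 1 gene symbol, 1621 several and 5534 none, and genes were named only from those with 1 symbol. A linear model of the 2 groups was fitted to all transcript clusters with limma 3.58.1 (lmFit, eBayes; R 4.3.3), two-sided and without covariate, and calls needed a raw p under 0.05 together with an adjusted p (Benjamini-Hochberg) under 0.1. A gene with several rows was represented by the brightest. The code was tested on simulated data. Correlations of SLRP pairs used 100000 permutations within groups in Python 3.11.15.

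The SLRP genes, the gene lists and the tests were chosen with earlier results of these data known. The text names all SLRP genes, all measured other family genes, the called genes with the largest change in each list (at most 2 up and 2 down), and the 5 genes most like Fmod and Dcn. Mkx was named after its value was seen. Of 174 listed genes 165 were measured, and the others were not analysed here. Alternatives covered normalization (quantile again, cyclic loess, subtracting the array's median), a filter that drops the dimmest 33.3% of rows, the test (the methods' test, a robust eBayes with trend, weights per array, the replicate number as a block, array SD as covariate), a stricter adjusted p of 0.05, averaging all rows of a gene, and the mice used (dropping any 1 of them, or both RS-4 and RS-6). Arrays with the same replicate number were not treated as paired in the main fit.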

Additional observations from a re-analysis of the deposited data

Results flagged for a closer look

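Kera in RS-3 had a log2 signal of 6.19, far above the other RS mice, of which the next was at 4.76. The gap was 0.708 of the range of the RS mice, past Dixon's 95% critical value for 6 samples. Of 20 groups tested (10 genes in RS and in RT), this was the 1 that passed, and chance gives about 1 in 20.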

How the results depend on the processing

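The number of SLRP genes called higher was 9 and their median log2 difference 0.91. With the SD of each array as a covariate the count was 2 and the median 0.43, and the cause was not tested. Under the other alternatives the count stayed between 7 and 9 and the median between 0.54 and 1.07, and leaving out 1 array gave 9 each time with medians from 0.74 to 1.07. In each of these fits 0 SLRP genes were called lower. Leaving out the dimmest 33.3% of transcript clusters removed Omd and Epyc from the test. Epyc, at −0.06, was at 0.012 with each array centered on its median. That centering moved the calls over all transcript clusters from 11.9% higher and 13% lower to 20.3% and 8.34%. In the lists around the SLRPs 48 genes were called higher and 6 lower. The first count was 20 with the covariate and 26 without RS-4 and RS-6, and 39 to 50 with 1 array left out. The second count was 3 with an adjusted p under 0.05, 3 with array weights, 3 with arrays centered on their medians, 3 with the replicate block, 0 with the covariate, 1 without RS-4 and RS-6, and 3 to 7 with 1 array left out. Leaving out RS-2, RS-4, RS-6, RT-2, RT-4 or RT-6 gave the 3. Same-number arrays correlated between −0.24 and 0.11 after removing group means, 1 of 6 pairs over 0.1. As values over all transcript clusters, these cannot show whether the numbers pair the mice for the SLRP genes. Under the replicate block 9 SLRP genes were called higher with a median of 0.91. The block took the SE of Kera from 0.28 to 0.21 and that of Dcn from 0.24 to 0.23. With 6 arrays per group and no detection calls, small differences of dim genes such as Omd and Epyc are the least certain.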
